A study of Homo sapiens with 6 samples.

Results

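Transcripts of the epidermal growth factor (EGF) receptor family and of the ligands that activate it were followed in SiHa cells after the gene CNN3 had been knocked down. The family was represented by 10 genes of the 48162 gene identifiers in the count table. These were the receptors EGFR, ERBB2 and ERBB3, the EGFR ligands AREG, EREG, HBEGF, TGFA, BTC and EPGN, and the ERBB3 ligand NRG1. The genes were taken by name, for their known place in squamous carcinoma cells. All 10 had enough counts to be tested.

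The receptors of this family are tyrosine kinases of the cell surface that work in pairs. A ligand bound to EGFR or ERBB3 brings receptors together, and the phosphorylated tails then recruit adaptors that switch on the RAS-ERK and PI3K-AKT cascades. ERBB2 binds no known ligand and serves as a partner, and ERBB3 has little kinase activity of its own. The ligands are made as membrane-anchored precursors and are released by sheddases, chiefly ADAM17 and ADAM10. Squamous epithelia and their carcinomas depend on this loop, and they often make both the receptor and its ligands.

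SiHa is a human cervical squamous carcinoma line that carries human papillomavirus type 16. Cells received a small interfering RNA (siRNA), either si-CNN3, made against the mRNA of the actin-binding protein calponin 3 (CNN3), or the control si-NC. They were harvested 48 h later, with 3 samples in each group (replicates 1 to 3), and the study's methods describe the samples as separate assays. Both groups are the same untreated line apart from the siRNA, and the knockdown rests on 1 siRNA. The samples held 18147028 to 24976517 counts, and the shallowest si-NC sample (20287139) was above the deepest si-CNN3 sample (19026341). CNN3 itself stood at 26.0, 26.8 and 31.4 CPM (counts per 1000000 counts of the sample) in the si-CNN3 samples and at 56.5, 51.7 and 57.2 CPM in the si-NC samples. It was lower in all 3 si-CNN3 samples, at 50.9% of the si-NC mean.

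The strand of si-CNN3 with the CNN3 mRNA sequence and its guide (the reverse complement, deduced from it) are shown with those of si-NC, since both siRNAs were in the cells compared. The capitals mark the seed, bases 2 to 8 of the guide.
si-CNN3#1 sense: gcagaugggaaccaacaaa
si-CNN3#1 guide: uUUGUUGGuucccaucugc
si-NC sense: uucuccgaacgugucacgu
si-NC guide: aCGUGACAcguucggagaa
The 19-base sense strand of si-CNN3#1 was found in 4 of 4 coding transcripts of CNN3 in GENCODE 29 and in 0 transcripts of the 10 genes. The word CCAACAA, which pairs with its seed, was present in 4 of 8 coding transcripts of EGFR, 7 of 11 of ERBB2 and 1 of 2 of BTC, and in 0 of the other members. Over all 83129 coding transcripts, 16.7% held that word. The word for the si-NC seed, TGTCACG, was in 0 transcripts of the 10 genes and in 4.29% of all coding transcripts. These matches describe the sequences and say nothing of what either siRNA did.

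The receptors showed no detectable change, and the ligands that passed the test were higher. AREG (amphiregulin) rose to 138% of its si-NC mean and EREG (epiregulin) to 107%. TGFA (transforming growth factor alpha) stood at 76.1% and did not pass. In all, 2 of the 10 genes passed an adjusted p of 0.05, both upward, where 13.3% of the 15860 tested genes did so in either direction, 6.17% upward and 7.14% downward. The 3 samples of each group did not overlap for 5 of the 10 genes, against 28.2% of all tested genes. Counts this small cannot be set apart from those shares. At an unadjusted p of 0.05 or less, edgeR had 2 members higher and 1 lower, and DESeq2 had 2 and 0, with 0 past its adjusted threshold. Over all tested genes, 3978 of 15860 had an unadjusted p of 0.05 or less by edgeR. DESeq2, run on the 30502 genes with a count, called 433 higher and 640 lower past its adjusted threshold. The log2 fold changes of the 10 genes (si-CNN3 over si-NC) were above 0 for 5 and below 0 for 5. Their median was 0.011, and the median over all tested genes was 0.002. Adjusted p-values throughout are from edgeR's quasi-likelihood test, adjusted by the Benjamini-Hochberg method over all tested genes, and CPM are scaled by the trimmed mean of M values (TMM).

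**Figure D1:**
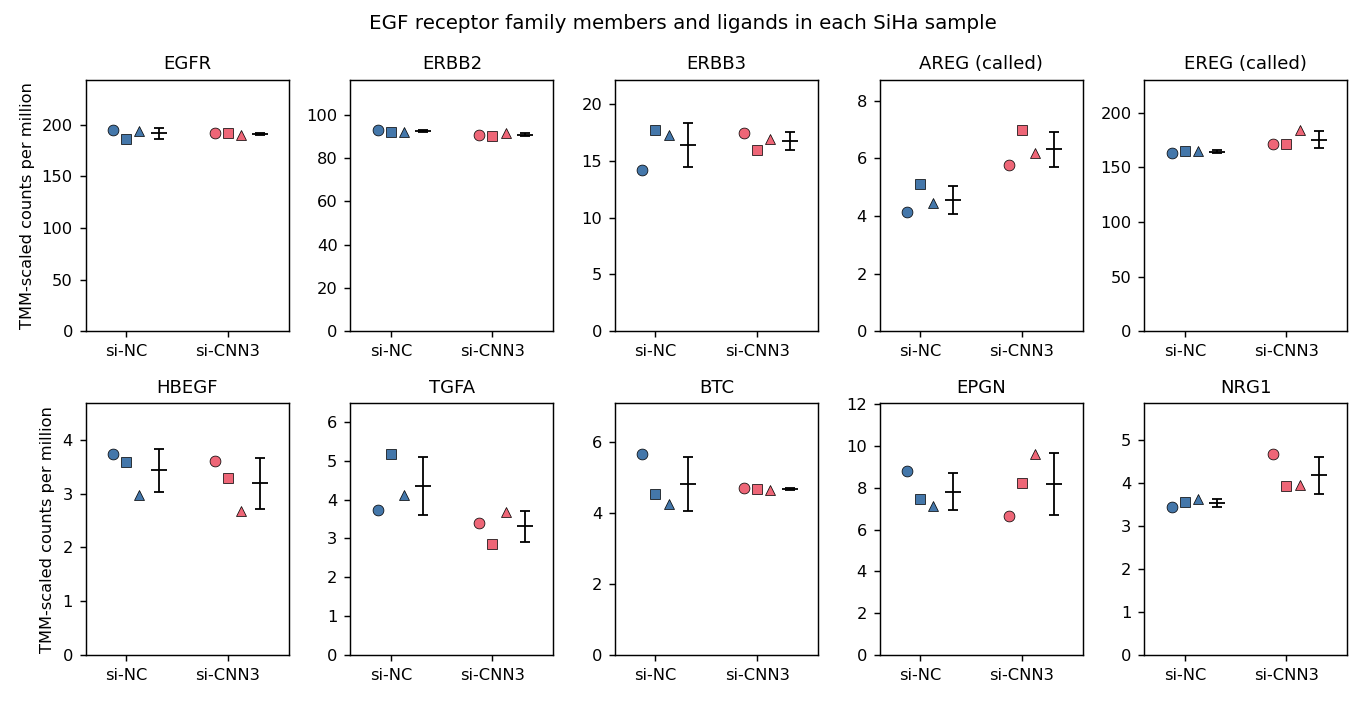
TMM-scaled CPM (vertical axes, each starting at 0) of the 10 genes in the 3 si-NC samples (blue) and the 3 si-CNN3 samples (red), with circles, squares and triangles for replicates 1, 2 and 3, and the mean ± SD of each group as a black bar. EGFR is level near 192 CPM in both groups, AREG and EREG are higher in every si-CNN3 sample than in every si-NC sample, and TGFA is lower in every si-CNN3 sample.

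EGFR (ENSG00000146648, chr7:55019021-55211628 in GENCODE 29 on GRCh38, plus strand), the receptor of all 6 EGFR ligands measured here, gave 192, 192 and 190 CPM in si-CNN3 samples 1 to 3. In the si-NC samples it gave 195, 186 and 194 CPM. The groups overlapped, and the si-NC samples enclosed the si-CNN3 samples. Its log2 fold change was -0.00066 (SE 0.03), with a 95% interval of -0.06 to 0.06 and an adjusted p of 0.994 by edgeR. This rested on 3473 to 4640 counts per sample.

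ERBB2 (ENSG00000141736, chr17:39687914-39730426, plus strand), the family's ligandless partner, gave 90.6, 90.0 and 91.4 CPM in the si-CNN3 samples and 92.9, 92.0 and 92.0 CPM in the si-NC samples. Every si-CNN3 sample was slightly lower. A log2 fold change of -0.03 (SE 0.03, 95% interval -0.10 to 0.04) did not pass the test, with an edgeR adjusted p of 0.717. PGAP3 and MIEN1 overlap the annotated ends of ERBB2 on the opposite strand, and the library kit does not mark strand, so reads there cannot be told apart. Those genes held 347 to 605 and 327 to 399 counts per sample, against 1668 to 2289 for ERBB2.

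ERBB3 (ENSG00000065361, chr12:56076799-56103505, plus strand), the receptor of neuregulins, gave 17.4, 15.9 and 16.9 CPM with si-CNN3 and 14.2, 17.7 and 17.3 CPM with si-NC. Replicate 1 of si-NC was the lowest of the 6 samples, and the groups overlapped. ERBB3 had a log2 fold change of 0.02 (SE 0.08), with a 95% interval of -0.13 to 0.18 and an edgeR adjusted p of 0.893. ERBB4, the remaining receptor of the family and no member of the set, had 1 to 5 counts per sample and was not tested. The summed FPKM of EGFR, ERBB2 and ERBB3 (the level per gene length that the authors deposited) was 121 to 123 in all 6 samples.

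AREG (ENSG00000109321, chr4:74445134-74455009, plus strand) encodes an EGFR ligand of low affinity that is common in epithelial wounds and tumours. It gave 5.78, 6.98 and 6.19 CPM in si-CNN3 samples 1 to 3, and 4.14, 5.10 and 4.45 CPM in si-NC samples 1 to 3. All si-CNN3 samples were above all si-NC samples, and the rise was the largest among the 10 genes. The means were 6.32 ± 0.608 and 4.56 ± 0.492 CPM (SD, n = 3 each). The log2 fold change was 0.46 (SE 0.13, 95% interval 0.21 to 0.71), with an edgeR adjusted p of 0.00762. This was the 515th highest log2 fold change of 15860. AREG rested on only 83 to 134 counts per sample, and its call was lost with DESeq2 (adjusted p = 0.0976) and when si-CNN3 replicate 2 was left out (0.38, adjusted p = 0.0722). RefSeq lists AREGB among the other names of AREG, and whether the authors' annotation held a copy under that name that could share its reads is not given in the sources used here.

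EREG (ENSG00000124882, chr4:74365143-74388751, plus strand) encodes a ligand of EGFR and ERBB4. It gave 171, 171 and 184 CPM with si-CNN3 and 163, 165 and 165 CPM with si-NC. Every si-CNN3 sample was higher, and replicate 3 of si-CNN3 stood above the rest. The means were 175 ± 7.82 and 165 ± 1.35 CPM (SD, n = 3 each), and the log2 fold change of 0.09 (SE 0.03, 95% interval 0.03 to 0.15) had an edgeR adjusted p of 0.0383. The call was lost when si-CNN3 replicate 3 was left out (0.053, adjusted p = 0.324), when si-NC replicate 1, 2 or 3 was (0.085, 0.094 and 0.094) and with DESeq2 (adjusted p = 0.138).

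The 250 bases before the annotated starts of AREG and EREG are shown because these were the members that rose. They are from RefSeq (GRCh38.p14, plus strand), with the capitals marking the words that were found. The AP-1 word TGANTCA, the CRE word TGACGTCA and the TEAD word GGAATG were searched on both strands, and no match overlapped another.
AREG, chr4:74444886-74445135: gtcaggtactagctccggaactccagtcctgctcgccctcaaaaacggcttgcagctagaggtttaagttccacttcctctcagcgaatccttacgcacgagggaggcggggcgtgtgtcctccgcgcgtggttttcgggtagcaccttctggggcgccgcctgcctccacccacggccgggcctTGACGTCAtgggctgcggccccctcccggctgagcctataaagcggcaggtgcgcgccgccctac
EREG, chr4:74364895-74365144: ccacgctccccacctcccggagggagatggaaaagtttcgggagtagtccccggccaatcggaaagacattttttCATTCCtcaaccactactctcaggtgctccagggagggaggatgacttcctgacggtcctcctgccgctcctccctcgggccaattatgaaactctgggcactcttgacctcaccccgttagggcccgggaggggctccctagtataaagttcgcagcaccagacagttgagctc
The AREG stretch held 1 CRE word, 65 bases before the start, and no AP-1 or TEAD word. The EREG stretch held 1 TEAD word, read on the minus strand as CATTCC, 175 bases before the start, and neither of the others. Of 35116 RefSeq promoter stretches of the same length, 1.65% held a CRE word, 11.9% a TEAD word and 6.57% an AP-1 word. Among the other members in that table, the stretches of TGFA, EPGN, BTC and HBEGF held none of these words. The stretch just before the annotated gene start of EGFR (chr7:55018767-55019016) held none either. That before a further EGFR start (chr7:55109589-55109838) held 2 AP-1 words and 1 TEAD word, and that of ERBB2 held 1 AP-1 word. The words say nothing of whether a factor was bound.

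TGFA (ENSG00000163235, chr2:70447280-70554193, minus strand), a classic autocrine ligand of carcinoma cells, gave 3.39, 2.86 and 3.67 CPM with si-CNN3. It gave 3.74, 5.18 and 4.13 CPM with si-NC, so that every si-CNN3 sample was lower, although the highest of them lay just under the lowest si-NC sample. The means were 3.31 ± 0.409 and 4.35 ± 0.748 CPM (SD, n = 3 each). The log2 fold change was -0.41 (SE 0.15, unadjusted 95% interval -0.71 to -0.11), the 364th lowest of 15860, with an edgeR adjusted p of 0.0616. Of the 55 to 129 counts per sample, the highest came from si-NC replicate 2, without which the log2 fold change was -0.253 with an adjusted p of 0.423. Without si-NC replicate 1 it passed (-0.502, adjusted p = 0.0326).

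HBEGF (ENSG00000113070, chr5:140332843-140346631, minus strand), the heparin-binding ligand, gave 3.61, 3.28 and 2.68 CPM with si-CNN3 and 3.74, 3.58 and 2.97 CPM with si-NC. BTC (betacellulin, ENSG00000174808, chr4:74744759-74794686, minus strand) gave 4.72, 4.69 and 4.66 CPM against 5.68, 4.54 and 4.26 CPM. EPGN (epigen, ENSG00000182585, chr4:74308473-74315307, plus strand) gave 6.68, 8.23 and 9.64 CPM against 8.82, 7.47 and 7.14 CPM. The groups overlapped for all 3 genes, and EPGN had both its lowest and its highest value in si-CNN3 samples. The log2 fold change was -0.10 for HBEGF (95% interval -0.42 to 0.22, edgeR adjusted p = 0.764). It was -0.03 for BTC (-0.30 to 0.23, edgeR adjusted p = 0.91) and 0.07 for EPGN (-0.15 to 0.29, edgeR adjusted p = 0.76). At 49 to 186 counts per sample these intervals leave room for changes as large as that of EREG in either direction. EGF itself had 0 to 6 counts per sample and was not tested.

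NRG1 (neuregulin 1, ENSG00000157168, on chromosome 8), a ligand of ERBB3 and ERBB4, gave 4.67, 3.91 and 3.94 CPM with si-CNN3 and 3.44, 3.54 and 3.62 CPM with si-NC. All si-CNN3 samples were higher, with replicate 1 farthest above. The log2 fold change of 0.24 (SE 0.14, 95% interval -0.05 to 0.53) did not pass, with an edgeR adjusted p of 0.311. Among the neuregulins outside the set, NRG2 had a log2 fold change of -0.12 (edgeR adjusted p = 0.791) and NRG4 of 0.10 (edgeR adjusted p = 0.551). NRG3 had 0 counts in every sample.

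**Figure D2:**
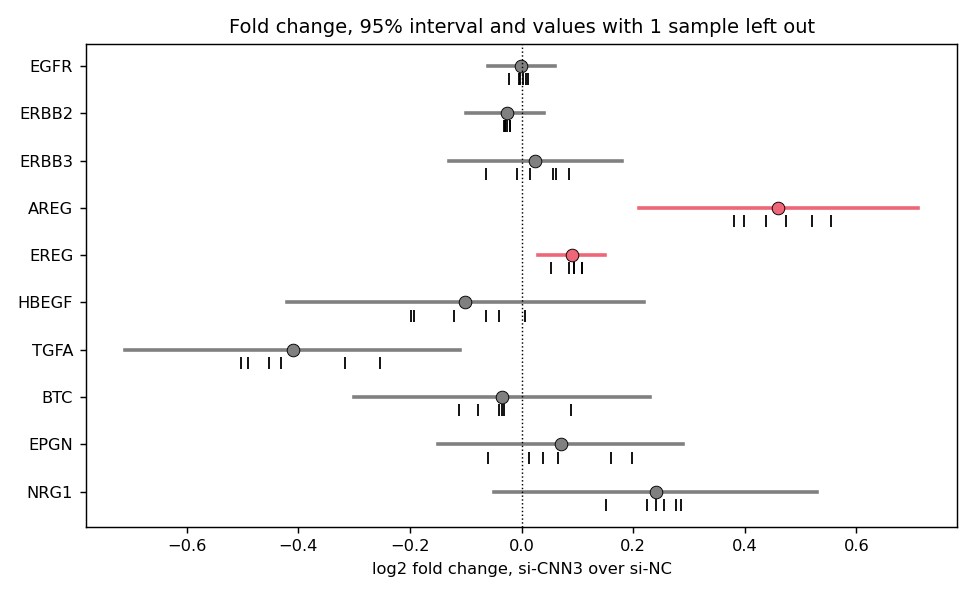
Log2 fold changes (si-CNN3 over si-NC, horizontal axis) of the 10 genes from all 6 samples (dots), their unadjusted 95% intervals (bars) and the values with each of the 6 samples left out in turn (black ticks), with red for genes past an adjusted p of 0.05. AREG (0.46) and EREG (0.09) stay above 0 and TGFA (-0.41) stays below 0 in all of these, while the ticks of EGFR, ERBB3, HBEGF, BTC and EPGN fall on both sides of 0.

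Ratios of counts within a sample, where no scaling between samples enters, were added after the values were seen. The ratio of AREG to TGFA counts was 1.70, 2.44 and 1.69 with si-CNN3 and 1.11, 0.984 and 1.08 with si-NC. AREG counts per 1000 EREG counts were 33.9, 40.8 and 33.6 against 25.4, 30.9 and 26.9. That the groups do not overlap in the ratio of AREG to TGFA follows from the values of these genes given above and adds no evidence. In the ratio of AREG to EREG the lowest si-CNN3 value lay close to the highest si-NC value.

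Levels can be compared between genes only per gene length. In the si-NC samples EREG had the highest FPKM of the 10 genes, 75.3 ± 0.864 (SD, n = 3), followed by EGFR at 71.8 ± 1.48 and ERBB2 at 40.1 ± 0.127. EPGN stood at 14.3 ± 1.59 and ERBB3 at 9.62 ± 1.15. AREG (4.61 ± 0.516), TGFA (3.83 ± 0.673), BTC (2.79 ± 0.425), HBEGF (2.48 ± 0.293) and NRG1 (1.90 ± 0.0514) were lower. The sample ranges of neighbours in this order overlapped for AREG with TGFA and for BTC with HBEGF. Those of TGFA (lowest 3.28) and BTC (highest 3.27) did not overlap, but they all but touched, so the order of this pair is not secure either. The means of the si-CNN3 samples had the same order.

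The deposited FPKM use 1 length per gene, and these lengths are shorter than the summed length of all annotated exons in GENCODE 29 by a factor of 1.64 for BTC to 6.14 for NRG1. With the exon lengths in their place, a comparison added after the files were seen, EREG (28.8 CPM per kilobase), EGFR (15.3), ERBB2 (8.94) and EPGN (4.31) kept the leading ranks. AREG (2.77) then came before ERBB3 (1.81), BTC (1.71) and HBEGF (1.14), and TGFA (0.876) moved to rank 9. On this scale the si-NC ranges overlapped for ERBB3 (1.57 to 1.96) with BTC (1.51 to 2.02). They also overlapped for HBEGF (0.983 to 1.24) with TGFA (0.753 to 1.04), so the order within these pairs is not secure. The order of the lower genes thus depended on the length used.

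**Figure D3:**
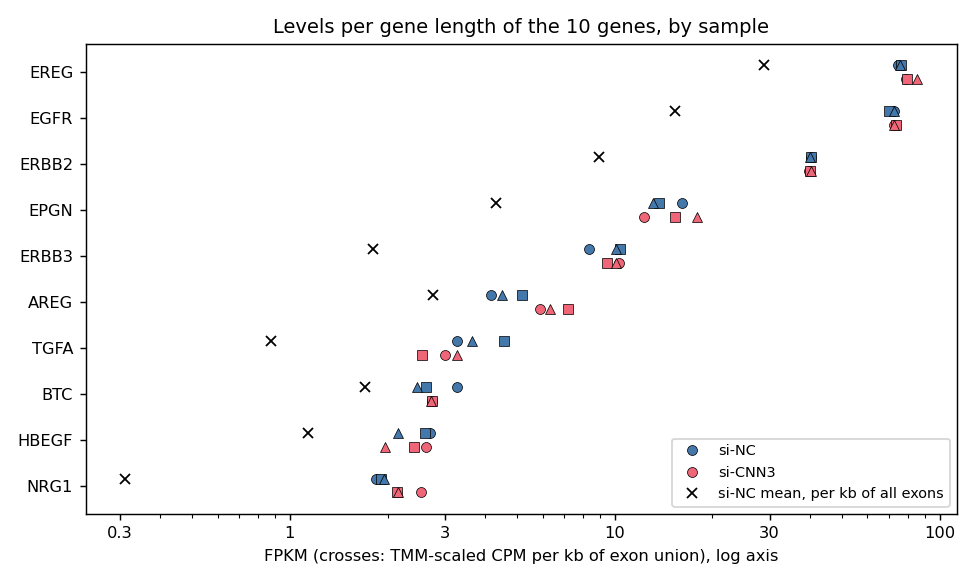
FPKM (horizontal log axis) of the 10 genes in the si-NC (blue) and si-CNN3 (red) samples, with circles, squares and triangles for replicates 1, 2 and 3, and crosses for the si-NC mean in CPM per kilobase of all annotated exons. EREG, EGFR and ERBB2 lead on both scales, and the crosses of ERBB3 and TGFA drop below those of genes with lower FPKM.

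Among the 7 ligands of EGFR, EREG made up 71.5% to 74.7% of the summed FPKM in every sample. AREG took 5.39% to 6.52% of that sum with si-CNN3 and 4.01% to 4.95% with si-NC. TGFA took 2.33% to 2.86% and 3.15% to 4.37%. The shares of AREG and TGFA thus did not overlap between groups, while that of EREG did. For AREG and TGFA this restates the values of these genes given above and adds no evidence. The sum itself was 105, 110 and 118 with si-CNN3 and 104, 105 and 101 with si-NC, so the lowest si-CNN3 sample and the highest si-NC sample were level at this rounding.

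The ligand genes EPGN, EREG, AREG and BTC lie in a span of 486 kb on chromosome 4, next to the genes of neutrophil-attracting CXC chemokines. Within 500 kb of that span GENCODE 29 places 30 genes, of which 8 could be tested. Of these 8, 3 passed, beside 13.3% of all tested genes, and these were AREG, EREG and CXCL1. AREG and EREG are members already counted above. Of the 4 tested genes that are not members, only CXCL1 passed. The genes of the window were not tested as a set. CXCL1, a chemokine gene that starts 576 kb before AREG, rose from 9.45 ± 1.18 to 15.2 ± 0.145 CPM (SD, n = 3 each), with a log2 fold change of 0.70 (SE 0.09) and an edgeR adjusted p of 8.03e-09. CXCL3 (log2 fold change 0.62, edgeR adjusted p = 0.13), CXCL2 (0.38, edgeR adjusted p = 0.0603) and MTHFD2L, a folate enzyme gene between them and EPGN (-0.06, edgeR adjusted p = 0.622), did not pass. EPGN and BTC, at the ends of the ligand span, had values near 0, as given above.

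**Figure D4:**
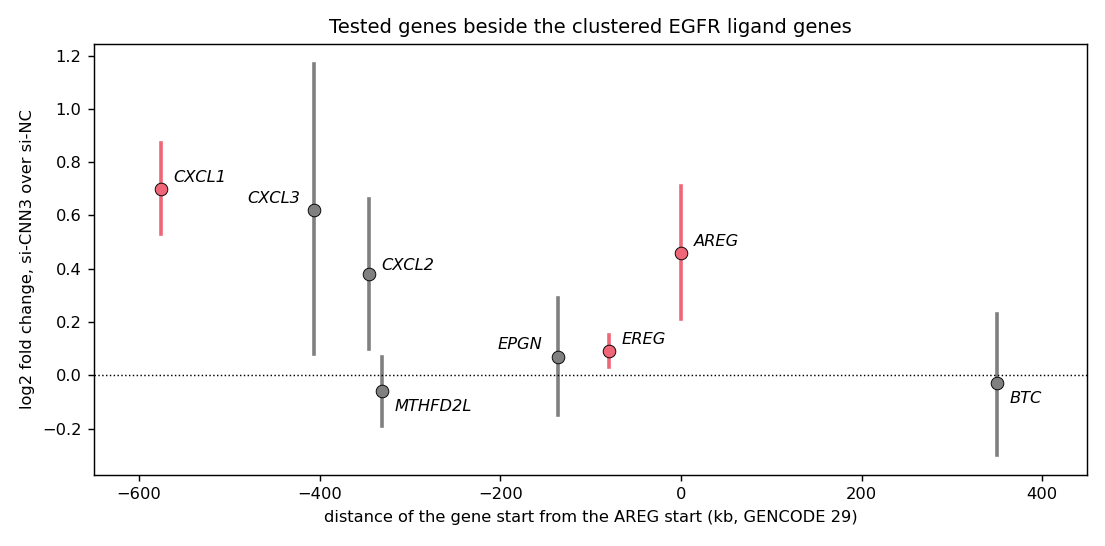
Log2 fold changes (si-CNN3 over si-NC, vertical axis) with unadjusted 95% intervals for the 8 tested genes beside the clustered EGFR ligand genes, by the distance of each gene's annotated start from that of AREG in kilobases (horizontal axis), with red for genes past an adjusted p of 0.05. CXCL1 (0.70), AREG (0.46) and EREG (0.09) are red, and MTHFD2L, EPGN and BTC lie between or beside them near 0. The intervals of EPGN and BTC hold the value of EREG.

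Release of the ligands was covered by 9 genes, all tested, of which 1 rose and 2 fell (median log2 fold change 0.041). Over all tested genes, 6.17% passed upward and 7.14% downward. ADAM9, a metalloprotease, rose by 0.25 (SE 0.03, edgeR adjusted p = 1.3e-08). ADAM17, the main sheddase of AREG, EREG, TGFA and HBEGF, fell from 30.4 ± 1.51 to 26.7 ± 1.41 CPM (SD, n = 3 each), a log2 fold change of -0.19 (edgeR adjusted p = 0.0198). ADAM15 fell, with a log2 fold change of -0.15 (edgeR adjusted p = 0.000107). ADAM10, the sheddase of BTC and EGF, had a log2 fold change of 0.05 (edgeR adjusted p = 0.237). The call of ADAM17 was lost with DESeq2, in the 3 limma fits, and without si-CNN3 replicate 1 or 3 or si-NC replicate 2, with values between -0.23 and -0.14 over all alternatives.

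The adaptors and RAS-ERK kinases behind the receptors had 16 tested genes, of which 2 rose and 3 fell (median -0.001). Beside them stand 6.17% upward and 7.14% downward over all tested genes. MAP2K1, which encodes the ERK kinase MEK1, fell from 96.1 ± 2.59 to 79.9 ± 3.38 CPM (SD, n = 3 each), a log2 fold change of -0.27 (edgeR adjusted p = 1.89e-07). Its paralogue MAP2K2 (MEK2) rose, with a log2 fold change of 0.10 (edgeR adjusted p = 0.012). The adaptor SHC1 (-0.13) and the RAS activator SOS2 (-0.19) fell, and HRAS (0.14) rose. GRB2, SOS1, NRAS and BRAF lay between -0.01 and 0.04 and did not pass. MAPK3, farther from 0 (-0.12, edgeR adjusted p = 0.174), did not pass either. At an unadjusted p of 0.05 or less, 2 of the 16 genes were higher and 4 lower by edgeR, beside 3978 of the 15860 tested genes in either direction. DESeq2 called 1 higher and 3 lower in this list, and HRAS was not among them. Of the 30502 genes it was run on, DESeq2 called 433 higher and 640 lower. The call of MAP2K2 was lost without si-CNN3 replicate 1 or si-NC replicate 1 or 3, and that of HRAS without si-CNN3 replicate 2 or 3 or si-NC replicate 2 or 3, within ranges of 0.09 to 0.12 and 0.13 to 0.17.

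The arm of PI3K, AKT, phospholipase C gamma, SRC and STAT had 14 tested genes, of which 0 rose and 1 fell (median -0.021). The shares over all tested genes were 6.17% upward and 7.14% downward. At an unadjusted p of 0.05 or less, 1 was higher and 3 were lower by edgeR, beside 3978 of the 15860 tested genes in either direction. DESeq2 called 0, beside 1073 of the 30502 genes it was run on. The gene that fell was PIK3R1, the regulatory subunit of PI3K, with a log2 fold change of -0.12 (edgeR adjusted p = 0.0277), and its call was lost without si-CNN3 replicate 2 or si-NC replicate 3 (-0.15 to -0.09 over all alternatives).

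The negative feedback and receptor down-regulation genes had 16 tested members, of which 4 rose and 0 fell by edgeR, with a median of 0.097. Of all tested genes, 6.17% passed upward and 7.14% downward, and the list was not tested as a set. At an unadjusted p of 0.05 or less 6 were higher and 1 was lower by edgeR, beside 3978 of the 15860 tested genes in either direction. DESeq2 called 2 higher and 0 lower, beside 433 higher and 640 lower of the 30502 genes it was run on. DUSP4, a phosphatase of ERK that ERK signalling induces, rose from 13.5 ± 0.539 to 20.0 ± 1.86 CPM (SD, n = 3 each), a log2 fold change of 0.56 (SE 0.07, edgeR adjusted p = 4.26e-08). SPRY2, a Sprouty inhibitor of RAS-ERK signalling, rose by 0.39 (edgeR adjusted p = 0.00879) and SPRED2, a relative of it, by 0.18 (edgeR adjusted p = 0.00569). RNF41, a ubiquitin ligase that sends ERBB3 for degradation, rose by 0.16 (edgeR adjusted p = 0.00309). DUSP5 (0.30, edgeR adjusted p = 0.0846), DUSP6 (0.23, edgeR adjusted p = 0.254) and the EGFR inhibitor ERRFI1 (0.06, edgeR adjusted p = 0.336) did not pass. Nor did SOCS5 (-0.16, edgeR adjusted p = 0.0624), which was lower in every si-CNN3 sample, or SPRY1 (-0.16, edgeR adjusted p = 0.755). The calls of SPRY2 (without si-CNN3 replicate 3 or si-NC replicate 2) and SPRED2 (without replicate 2 of either group) were lost on leaving out 1 sample, with values of 0.31 to 0.43 and 0.13 to 0.23 over all alternatives.

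Genes that respond to ERK signalling had 14 tested members, of which 4 rose and 2 fell by edgeR (median 0.021). By edgeR 6.17% of all tested genes passed upward and 7.14% downward. At an unadjusted p of 0.05 or less, 4 of the list were higher and 4 lower by edgeR, beside 3978 of the 15860 tested genes in either direction. In this list DESeq2 called 0 higher and 2 lower, beside 433 higher and 640 lower of the 30502 genes it was run on. Among those that rose were the transcription factor genes ETV5 (0.25) and FOSL1 (0.21) and the early gene IER3 (0.17), and none of these calls held with DESeq2. MYC (-0.18) and PLAUR (-0.21), the urokinase receptor gene, fell, with edgeR adjusted p-values of 5.03e-05 and 3.24e-05. The immediate early genes EGR1 (-0.03, edgeR adjusted p = 0.739) and FOS (-0.17, edgeR adjusted p = 0.0616) did not pass. Nor did PHLDA1 (-0.17, edgeR adjusted p = 0.0942) or ETV4 (0.15, edgeR adjusted p = 0.39). FOS and PHLDA1 were lower in every si-CNN3 sample, and ETV4 was higher in every one. For FOSL1 the groups overlapped, and it was called in only 2 of the 6 fits that left out a sample, those without si-CNN3 replicate 2 or si-NC replicate 1 (0.16 to 0.29 over all alternatives). The call of IER3 was lost without si-NC replicate 2 (0.12 to 0.22 over all alternatives).

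**Figure D5:**
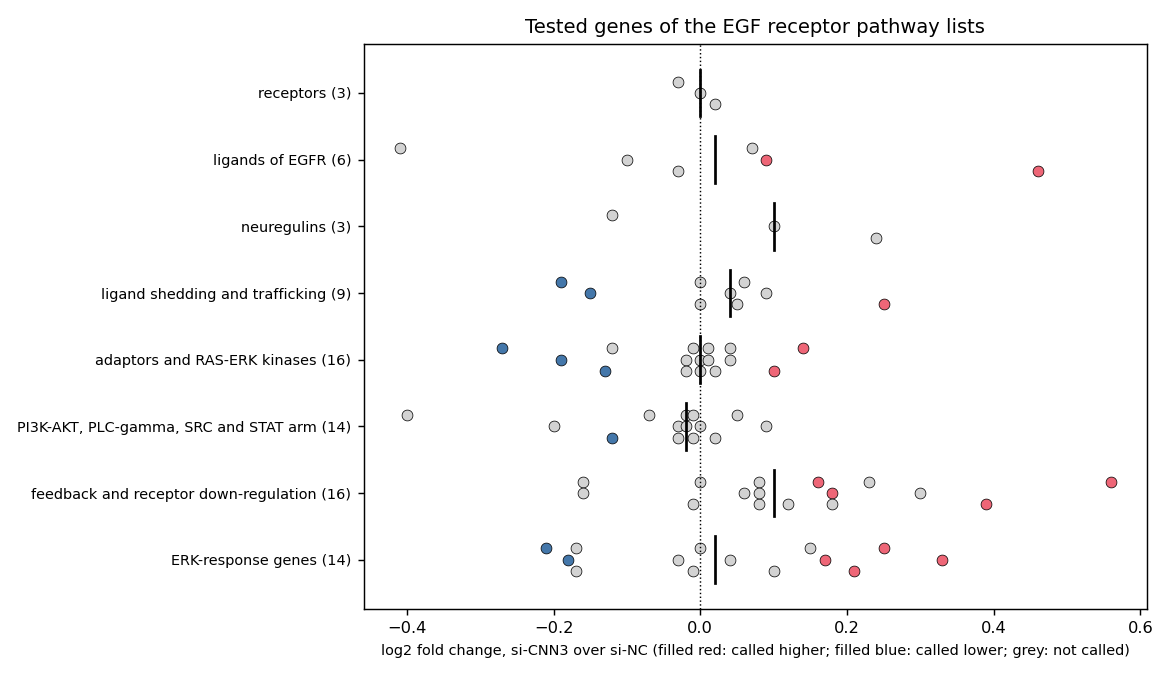
Log2 fold changes (si-CNN3 over si-NC, horizontal axis) of the tested genes in 8 lists of the pathway (rows, with the number tested in brackets), with red for genes called higher, blue for genes called lower, grey for genes not called and a black line for the median of each list. The medians lie between -0.021 and 0.105. Red and blue occur together in the shedding, RAS-ERK and ERK-response rows, while the feedback row has 4 red and 0 blue dots. Over all tested genes 6.17% were called higher and 7.14% lower.

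Over the 8 pathway lists together, 81 distinct genes were tested and 21 passed, 13 upward and 8 downward. Of all tested genes, 13.3% passed in either direction, 6.17% upward and 7.14% downward. DESeq2 called 10 of the list genes, beside 1073 of the 30502 genes it was run on. The median log2 fold change of the 81 genes by edgeR was 0.003. Depth, which was lower in every si-CNN3 sample, went with the groups, and its part in these values was not tested.

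The epithelial label of the line was checked with 9 markers. KRT7, KRT8 and KRT18 stood above 100 CPM in both groups, while KRT5 and KRT6A were under 1 CPM. The summed level of the list was 1220 to 1250 CPM with si-CNN3 and 1280 to 1330 CPM with si-NC. Of the 8 tested, 3 passed, beside 13.3% of all tested genes. TP63, a transcription factor of basal squamous cells, rose from 2.75 ± 0.230 to 4.40 ± 0.567 CPM (SD, n = 3 each). Its log2 fold change was 0.68 (edgeR adjusted p = 0.000958), on 59 to 96 counts per sample. Of the keratins under 1 CPM, KRT6A (-0.17, edgeR adjusted p = 0.8) did not pass and KRT5 was not tested. Among the simple-epithelial keratins, KRT8 (-0.19) and KRT18 (-0.18) fell, with edgeR adjusted p-values of 4.87e-07 and 5.31e-05. KRT7 (0.06, edgeR adjusted p = 0.0832) and KRT19 (-0.05, edgeR adjusted p = 0.865) did not pass, and KRT7 was higher in every si-CNN3 sample. Nor did CDH1 (0.05, edgeR adjusted p = 0.632) or EPCAM (0.10, edgeR adjusted p = 0.685). Of 9 markers of leukocytes, endothelium, fibroblasts and hepatocytes, 5 were tested and 0 passed by edgeR or DESeq2 (1 had an unadjusted p of 0.05 or less by edgeR), and their summed level was 11.5 to 13.4 CPM and 11.8 to 13.1 CPM. Whether the epithelial markers and the ligands moved together in the same cells was not tested.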

How the data were processed

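RNA of 6 SiHa samples, 3 with si-CNN3 and 3 with si-NC, was sequenced. The authors aligned the reads with TopHat2 (2.0.9) and Bowtie2 (2.0.6) and counted them with HTSeq, per the submitters' processing notes, and deposited raw counts per Ensembl gene. The deposited FPKM were made by the authors from the same counts, and each of the 30502 genes with a count had 1 implied length. The genome build, the annotation and the strand setting are not given in the sources used here. Names were matched in GENCODE 29 for 45342 of 48162 identifiers.

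Counts were tested with edgeR (4.0.16, R 4.3.3), using filterByExpr, TMM scaling, the quasi-likelihood test and Benjamini-Hochberg adjustment over 15860 genes, with a threshold of 0.05. Of these, 2111 passed (978 higher and 1133 lower) and 3978 had an unadjusted p of 0.05 or less. With total counts alone as the scaling, 1294 were higher and 863 lower. SE and 95% intervals were derived from the same fit. The script was tested on simulated data. Alternatives used DESeq2 (1.42.0), limma (3.58.1) on log2(FPKM + 1) and log2(FPKM + 0.1), other scalings and filters, a replicate block, and each sample left out. Promoter words were searched in the 250 bases before RefSeq starts. ERBB3 had no entry there, and NRG1 was not searched.

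The members and lists were chosen with earlier results of these data known. Named in the text are all 10 members with every sample's value, each called gene of a pathway list (at most 6 were called in any) except for an item that is not reported here, and ERBB4, EGF and the other neuregulins. Other list genes named were chosen after their values were seen. The edgeR p-values weigh the difference between the groups against the spread among the 3 samples of each group. That spread is estimated with information shared over all tested genes.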

Additional observations from a re-analysis of the deposited data

How the results depend on the processing

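The number of genes called was 2111, and it was 1073 with DESeq2, 1363 and 1353 with limma on log2(FPKM + 1) and log2(FPKM + 0.1) for genes with a mean FPKM of at least 1, and 585 with limma on all genes. Of the 10 members, 2 were called by edgeR, 0 by DESeq2, 1 without the filter on low counts, 1 in either filtered limma fit and 0 in the unfiltered limma fit, and between 1 and 2 when 1 sample was left out. Of the genes in the pathway lists, 10 were called by DESeq2, 5 by limma on all genes, and 13 to 22 with 1 sample left out. Of the tested genes beside the chromosome 4 ligands, 1 was called by DESeq2 and 1 by limma on all genes, and CXCL1 passed in all 16 alternatives. Of the 22 genes called in the pathway lists or beside the ligands, 22 kept their direction in all 16 alternatives, 11 were called whichever sample was left out, and 5 in every alternative.

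AREG stayed above 0, but its call was lost with DESeq2 (log2 fold change 0.464) and with limma on all genes (0.411), where adjusted p-values over the alternatives with all samples ran from 0.00258 to 0.101, and its values with 1 sample left out ran from 0.38 to 0.555. EREG lost its call with DESeq2 (0.09), without the filter (0.085) and in the limma fits (0.107, 0.108 and 0.107), with adjusted p-values from 0.00471 to 0.209, and ran from 0.053 to 0.109 with 1 sample left out. TGFA ran from -0.502 to -0.253 with 1 sample left out. The value of EGFR changed sign with upper quartile scaling (0.005), total counts (0.017) and limma (0.016 in all 3 fits), and ran from -0.022 to 0.011 with 1 sample left out. Left out in turn, samples also moved ERBB3 from -0.063 to 0.085, HBEGF from -0.198 to 0.006, BTC from -0.112 to 0.088 and EPGN from -0.061 to 0.197. ERBB2 and NRG1 kept their direction in all 16 alternatives and did not pass the adjusted p threshold in any of them. Against exon lengths, 5 of the 10 genes kept their rank by level. The cause of these changes was not tested.

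Samples with the same replicate number deviated together only weakly, with correlations of 0.077, 0.129 and 0.102 over 9795 genes, so the numbers were not taken to pair the samples. Each sample correlated best with its own number (all other pairs were between -0.085 and -0.017), which is a hint from the data. With the replicate block 2727 genes were called, all 2111 among them, and TGFA passed (-0.403, adjusted p = 0.0438), bringing the members called to 3. Counts of 49 to 186 per sample limit HBEGF, TGFA, BTC, EPGN, NRG1 and AREG.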
